A study of Mus musculus with 12 samples.

Results

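NADPH oxidases of phagocytes and of the vessel wall were followed in mouse hearts through 9 genes, taken by symbol from the 53801 genes counted: Cybb, Cyba, Ncf1, Ncf4, Rac2, Nox1, Nox4, Duox1 and Noxa1. RNA was sequenced from hearts of C57BL/6N mice after sham surgery (sham), 1 day after acute myocardial infarction (day 1 AMI) and 7 days after it (day 7 AMI). Each group had 4 hearts, sequenced as separate libraries, 12 in total. For AMI the left anterior descending coronary artery was tied off permanently through a left thoracotomy, and the labels name no transgene, knockout or drug in any group. Per the study's methods, surgery was done on adult males and RNA came from the whole heart, and the sources used here do not give the day on which sham hearts were taken. Libraries held between 23204551 and 32166517 counts. The floor of a library was taken as 3 counts, which equalled 0.0895 to 0.156 CPM. CPM are counts scaled to library totals that were first adjusted by TMM normalization, with factors from 0.781 to 1.17. Of the 9 genes, 7 passed the filter on low counts among 15306 genes tested, and Nox1 and Noxa1 did not.

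NADPH oxidases are membrane enzymes that pass electrons from cytosolic NADPH to oxygen and so make superoxide or hydrogen peroxide. In phagocytes the catalytic subunit gp91phox (Cybb) sits in the membrane with p22phox (Cyba), and the burst begins when cytosolic proteins, among them p47phox (Ncf1), p40phox (Ncf4) and the GTPase Rac2, join them. Nox4 also needs p22phox but makes hydrogen peroxide without the cytosolic subunits, and it is known from fibroblasts, endothelium, smooth muscle and cardiomyocytes. Nox1 works with the organizer Noxo1 and the activator Noxa1, and Duox1 is a calcium-dependent oxidase known from thyroid and airway epithelium.

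Promoter windows are shown for 4 members whose levels took different courses below: Cybb and Nox4, the catalytic subunits with the largest changes by day 7, Ncf1, a cytosolic subunit that rose on day 1, and Nox1, which stayed near the floor. Each runs 5' to 3' on the strand of its gene, from 250 bases before the start site to 30 bases after it (RefSeq, GRCm38.p6). The windows lie at chrX:9469295-9469574 on the minus strand for Cybb, chr5:134229596-134229875 on the minus strand for Ncf1, chr7:87246399-87246678 on the plus strand for Nox4, and chrX:134111825-134112104 on the minus strand for Nox1. Capitals mark GAGGAA or its reverse complement TTCCTC, a core sequence bound by PU.1, the ETS factor of myeloid cells, searched on both strands of windows of 300 bases. Only exact matches were marked, so other forms of a PU.1 site were not searched for, and binding was not measured.
Cybb: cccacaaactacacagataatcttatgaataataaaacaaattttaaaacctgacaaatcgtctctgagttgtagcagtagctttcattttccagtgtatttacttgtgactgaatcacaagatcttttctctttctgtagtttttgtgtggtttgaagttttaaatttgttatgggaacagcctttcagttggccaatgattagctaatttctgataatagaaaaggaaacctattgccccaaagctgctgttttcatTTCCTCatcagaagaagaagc
Ncf1: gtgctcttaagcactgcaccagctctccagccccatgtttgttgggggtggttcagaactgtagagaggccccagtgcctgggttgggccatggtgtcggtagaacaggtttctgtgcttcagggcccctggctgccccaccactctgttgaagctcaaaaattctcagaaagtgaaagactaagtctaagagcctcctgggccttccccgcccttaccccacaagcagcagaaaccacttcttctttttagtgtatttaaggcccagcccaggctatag
Nox4: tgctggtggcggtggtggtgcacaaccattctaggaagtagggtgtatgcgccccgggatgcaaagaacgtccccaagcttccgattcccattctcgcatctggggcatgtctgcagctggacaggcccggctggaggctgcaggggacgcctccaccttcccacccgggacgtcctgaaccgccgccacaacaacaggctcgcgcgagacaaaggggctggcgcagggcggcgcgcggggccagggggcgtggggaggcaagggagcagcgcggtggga
Nox1: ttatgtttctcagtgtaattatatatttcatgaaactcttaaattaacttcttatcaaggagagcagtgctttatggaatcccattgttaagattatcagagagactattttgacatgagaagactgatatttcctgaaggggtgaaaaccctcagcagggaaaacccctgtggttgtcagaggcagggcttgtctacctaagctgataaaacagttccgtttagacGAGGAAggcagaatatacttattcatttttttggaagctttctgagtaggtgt
The motif was present once in the Cybb window, on the opposite strand 9 bases after the start site, and once in the Nox1 window, 23 bases before it. It was absent from the windows of Ncf1, Nox4, Cyba, Duox1 and Noxa1. Of 32851 promoter windows, 28.3% held it, so its presence in 2 of 7 member windows was near the background.

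In the membrane pair of the phagocyte oxidase, Cybb rose mainly between day 1 and day 7, whereas Cyba changed by less than 2-fold. Cybb (ENSMUSG00000015340, GRCm38 X, 9435252 to 9487771, minus strand) had 251, 281, 233 and 239 counts in sham hearts, 518, 862, 536 and 576 in day 1 AMI hearts, and 1815, 1018, 912 and 1983 in day 7 AMI hearts. Normalized to the library, these were 11.3 to 13.1 CPM in sham, 17.5 to 25.7 CPM on day 1 and 33.6 to 67.4 CPM on day 7, and no pair of groups overlapped. The log2 FC from sham was 0.78 ± 0.19 (SE) on day 1 (FDR 0.00554) and 2.05 ± 0.20 on day 7 (FDR 1.05e-06), a 4.15-fold difference. Between day 1 and day 7 it was 1.27 ± 0.19 (FDR 9.93e-05). A gene was called a DEG where its FC reached 2 and its edgeR FDR was below 0.05, so Cybb was called on day 7 but not on day 1, when it was 1.72-fold above sham. The hearts were bulk samples, in which more cells of a type and more RNA per cell cannot be told apart.

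Cyba (ENSMUSG00000006519, chromosome 8, 122424776 to 122432930, minus strand), the stabilizing partner of both gp91phox and Nox4, had 333, 560, 466 and 474 counts in sham hearts, 865, 1297, 922 and 1117 on day 1, and 1454, 791, 789 and 1122 on day 7. After normalization the AMI hearts ran from 29.1 to 44.8 CPM, and the lowest sham heart was at 17.4 CPM. Every AMI heart was above every sham heart, while the day 1 and day 7 hearts overlapped. The log2 FC from sham was 0.68 ± 0.14 on day 1 (FDR 0.00163) and 0.74 ± 0.14 on day 7 (FDR 0.000396), and from day 1 to day 7 it was 0.06 ± 0.14 (FDR 0.755). Whether Cybb and Cyba passed 2-fold depended on the scaling. With library sizes alone, which moved the median log2 FC of all genes to 0.26 on day 1 and 0.42 on day 7, Cybb on day 1 was at 1.06 and Cyba on day 7 at 1.13.

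**Figure D1:**
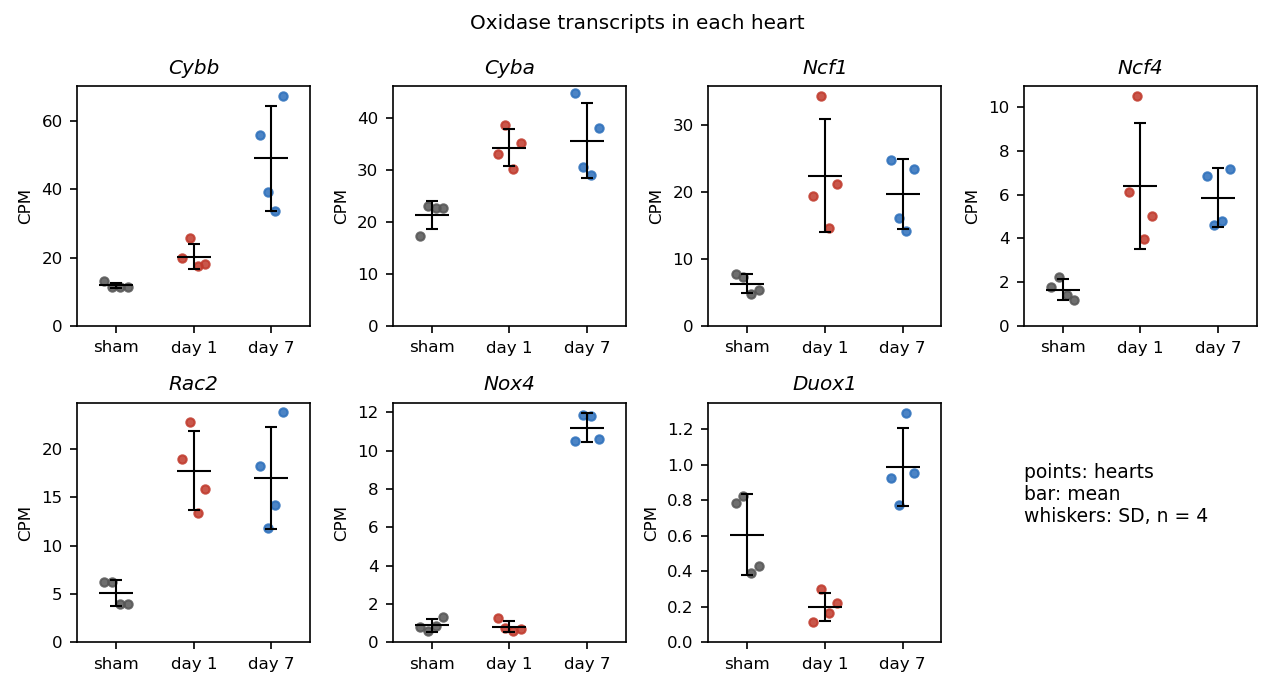
CPM (linear axis from 0) of the 7 members that passed the filter in each heart, with the mean and SD of 4 hearts. Ncf1, Ncf4 and Rac2 were already high on day 1, Cybb was highest on day 7 at 33.6 to 67.4 CPM, and Nox4 stood at 10.5 to 11.9 CPM on day 7 only.

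The cytosolic subunits were higher by day 1 and differed little between day 1 and day 7. Ncf1 (ENSMUSG00000015950, chromosome 5, 134220053 to 134229625, minus strand), whose product organizes the active complex, had 148, 178, 99 and 112 counts in sham, 510, 1154, 449 and 676 on day 1, and 808, 420, 386 and 691 on day 7. In CPM the hearts ran from 4.80 to 7.71 in sham, 14.7 to 34.4 on day 1 and 14.2 to 24.9 on day 7, so that sham stood apart from both AMI groups and these overlapped. Its log2 FC from sham was 1.84 ± 0.26 on day 1 (FDR 0.000137), or 3.57-fold, and 1.65 ± 0.26 on day 7 (FDR 9.19e-05). From day 1 to day 7 it was -0.19 ± 0.24 (FDR 0.545). Gtf2ird2 lies on the opposite strand over 11.1% of the exon bases of Ncf1 and, with the strand counted not given in the sources used here, reads of the overlap cannot be told apart. Its level ran only from 6.45 to 10.4 CPM over all 12 hearts.

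Ncf4 (ENSMUSG00000071715, chromosome 15, 78244801 to 78262580, plus strand), a phosphoinositide-binding subunit, had 34, 55, 29 and 25 counts in sham, 160, 352, 121 and 159 on day 1, and 223, 119, 130 and 211 on day 7. Its log2 FC from sham was 1.94 ± 0.31 on day 1 (FDR 0.000273) and 1.81 ± 0.31 on day 7 (FDR 0.000157). It was the least abundant of the phagocyte members by count, yet its sham hearts, at 1.19 to 2.26 CPM, lay below every AMI heart, the lowest of which was at 3.96 CPM.

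Rac2 (ENSMUSG00000033220, chromosome 15, 78559167 to 78572783, minus strand), the Rac GTPase of blood cells, had 120, 153, 82 and 83 counts in sham, 497, 766, 410 and 503 on day 1, and 594, 306, 386 and 701 on day 7. The log2 FC from sham was 1.79 ± 0.24 on day 1 (FDR 9.47e-05) and 1.73 ± 0.24 on day 7 (FDR 2.74e-05), and the sham hearts did not overlap either AMI group. From day 1 to day 7, Ncf4 and Rac2 were at -0.13 ± 0.27 (FDR 0.732) and -0.06 ± 0.22 (FDR 0.846). The TPM of Rac2 did not follow its counts, with 12.3 TPM in sham replicate 2 against 1.51 to 2.25 TPM in the other sham hearts. One CPM of library total was worth 2.14 TPM in that heart and 0.451 to 0.460 TPM in the other sham hearts, and between 0.490 and 1.10 TPM on day 1.

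The 3 cytosolic subunits and Cybb tended to be high in the same hearts. Day 1 AMI replicate 2 was the highest of its group in all 5 phagocyte members, and day 7 AMI replicates 4 and 1 were the highest in 3 and 2 of them. Sham replicates 1 and 2 were the highest in 2 and 3 of the 5. The same 2 sham hearts had summed CPM of 10 neutrophil markers of 33.3 and 62.1, against 4.02 and 2.96 in sham replicates 3 and 4, and sham replicate 2 also had 4464 summed CPM of hemoglobin and other erythroid markers against 491 to 1181 in the others. With sham replicates 3 and 4 alone, a setting chosen after seeing the data, the day 1 log2 FC was 2.15 for Ncf1, 2.30 for Ncf4 and 2.16 for Rac2. The part of these markers in the levels was not tested.

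**Figure D2:**
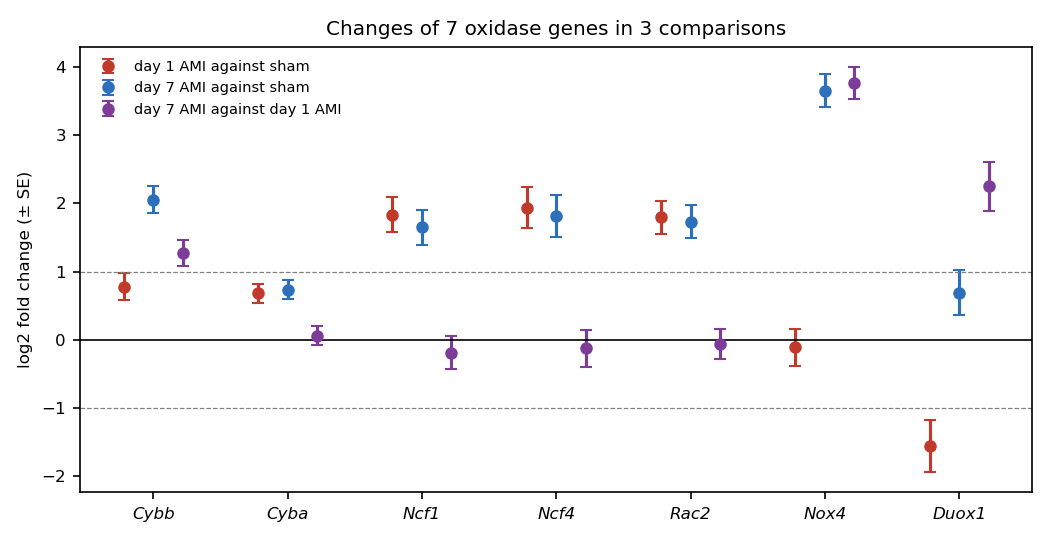
Log2 FC with its SE for 7 members in 3 comparisons (edgeR, 12 hearts in 1 fit); dashed lines mark 2-fold. The cytosolic subunits lay between 1.65 and 1.94 in both comparisons with sham and near 0 between the AMI groups, while Nox4 lay at -0.11 on day 1 and 3.65 on day 7.

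Since scaling affects all genes of a library alike, the members were also compared as log2 ratios of counts within each library, which do not depend on it. These are ratios of reads and not of molecules, because the transcripts differ in length. The ratio of Cyba to Cybb was 0.85 ± 0.29 (SD, n = 4) in sham, 0.77 ± 0.15 on day 1 and -0.43 ± 0.27 on day 7. It did not pass the test between sham and day 1 (difference -0.08, exact permutation p = 0.571) and was lower on day 7 in every heart, by exact two-sided permutation tests with p = 0.0286 against sham and against day 1. That is the smallest p that 4 against 4 hearts can give, and it became 0.0429 after Benjamini-Hochberg adjustment over the 18 ratio tests.

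The cytosolic subunits moved the other way against Cybb at first. The ratio of Ncf1 to Cybb rose from -0.93 ± 0.27 in sham to 0.09 ± 0.29 on day 1 and stood at -1.30 ± 0.15 on day 7. The corresponding changes from sham to day 1 were 1.03 for Ncf1, 1.11 for Ncf4 and 1.04 for Rac2, and those from day 1 to day 7 were -1.39, -1.29 and -1.32. All 6 of these differences had adjusted p = 0.0429 by the exact permutation test, with no overlap of hearts. The 3 ratios divide by the same Cybb counts, so these 6 results are not independent of each other. On day 7 against sham the 3 ratios differed by -0.37, -0.18 and -0.28, and their hearts overlapped (exact permutation p = 0.0571, 0.486 and 0.229). From TPM in place of counts, the day 1 differences were 1.04 for Ncf4 (exact permutation p = 0.0571) and 1.09 for Rac2 (exact permutation p = 0.2), so those 2 calls were lost.

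**Figure D3:**
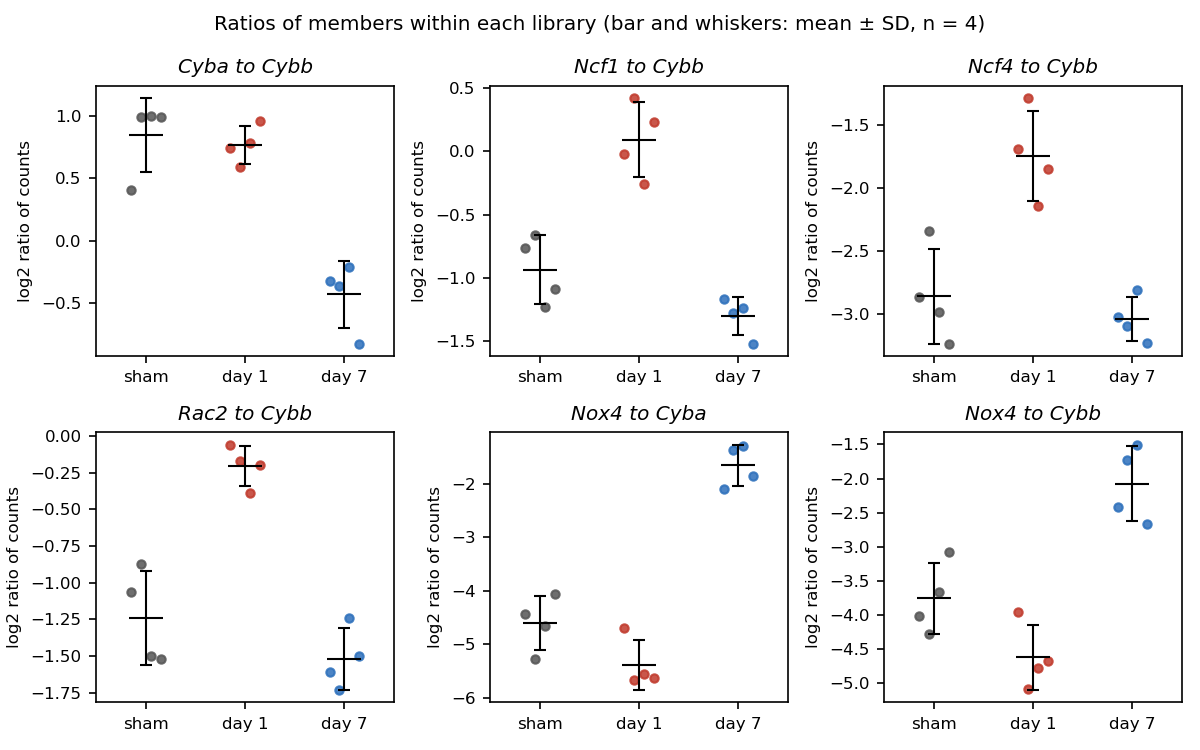
Log2 ratio of the counts of the named genes within each library, with mean and SD of 4 hearts. The cytosolic subunits stood highest against Cybb on day 1, Cyba fell against Cybb only by day 7, and Nox4 rose against both membrane subunits on day 7.

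Markers of leukocytes, like the phagocyte members, were higher in both AMI groups than in sham. Between day 1 and day 7, 0 of 10 pan-leukocyte markers were called higher and 0 lower (median log2 FC 0.12). Against sham, all 10 of these 10 markers, such as Ptprc (CD45) and Itgb2, were called higher on day 1 (median log2 FC 1.69) and again on day 7 (median 1.93). The medians over all genes tested were -0.01 and 0.03. Their summed level was 85.6 to 148.7 CPM in sham, 317 to 465 CPM on day 1 and 324 to 529.5 CPM on day 7, and none was at 0 in any group. Of 9 neutrophil markers tested, 4 were called higher on day 1 and 7 lower on day 7 than on day 1, including Csf3r, Cxcr2 and Mmp9. On day 1, S100a8, S100a9, Mmp8 and Cd177 were higher without a call, and Retnlg was at -0.50, also not called. The 10 listed neutrophil markers summed to 2.96 to 62.1 CPM in sham, 49.3 to 177 CPM on day 1 and 8.61 to 40.6 CPM on day 7. The sham range thus overlapped those of both AMI groups. Of 14 monocyte and macrophage markers, 6 were called higher on day 1 and 11 on day 7, and their sum grew from 348 to 531 CPM in sham to 630.5 to 897.5 CPM on day 1 and 960 to 1480 CPM on day 7. Cx3cr1 and Ms4a7, which mark monocytes and macrophages, were the 2 of these called higher on day 7 than on day 1.

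Against the mean log2 CPM of the 10 leukocyte markers, the cytosolic subunits changed by under 0.1 from sham to day 1 on the log2 scale. The difference was 0.03 for Ncf1, 0.09 for Ncf4 and 0.04 for Rac2, and the hearts overlapped in each case (exact permutation p = 0.857, 0.686 and 0.6). Cybb was instead lower against these markers on day 1, at -0.61 ± 0.05 (SD, n = 4) compared with 0.38 ± 0.32 in sham, and back at 0.47 ± 0.12 on day 7. Its day 1 hearts, from -0.65 to -0.54, lay below every heart of the other groups, the lowest of which was at -0.02. Cyba was lower against the markers on day 1 and on day 7, by differences of -1.07 and -1.19. These differences of Cybb and Cyba, and one of -0.28 for Ncf1 on day 7 against sham, each had an exact permutation p of 0.0286, the smallest possible, and an adjusted p of 0.0857 over 15 tests. The level against leukocyte markers thus did not pass the corrected test for any member. Against the 14 monocyte and macrophage markers instead, the day 1 differences from sham were 0.63 for Ncf1, 0.69 for Ncf4 and 0.63 for Rac2, and those from day 1 to day 7 were -0.78, -0.68 and -0.70, without overlap of hearts (exact permutation p = 0.0286 each, unadjusted). Cybb against those markers differed by -0.40 on day 1 and by 0.61 from day 1 to day 7, with the same p from the exact permutation test. The part of leukocyte number in the levels was not tested.

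**Figure D4:**
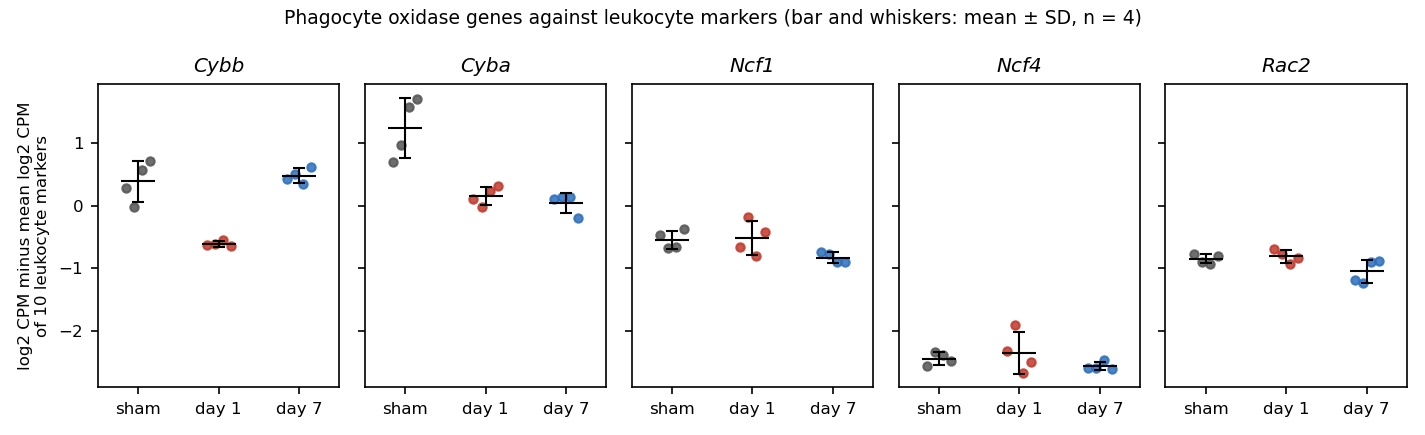
Log2 CPM of each phagocyte member minus the mean log2 CPM of 10 leukocyte markers in the same heart, with mean and SD of 4 hearts. Ncf1, Ncf4 and Rac2 changed by 0.03 to 0.09 from sham to day 1, whereas Cybb dropped to -0.61 on day 1 and returned to 0.47 on day 7.

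The vascular and stromal oxidase Nox4 showed the largest change among the members. Nox4 (ENSMUSG00000030562, chromosome 7, 87246096 to 87398710, plus strand) had 15, 14, 18 and 28 counts in sham hearts, 33, 25, 19 and 22 on day 1, and 341, 307, 321 and 312 on day 7. Sham and day 1 hearts overlapped at 0.575 to 1.34 and 0.621 to 1.26 CPM, and every day 7 heart lay between 10.5 and 11.9 CPM. The log2 FC from sham was -0.11 ± 0.27 on day 1 (FDR 0.771), with a sign that turned at 0.16 on library sizes alone and 0.30 on TPM with 0.1 added, and 3.65 ± 0.24 on day 7 (FDR 5.43e-08), which was 12.6-fold. From day 1 to day 7 it was 3.76 ± 0.24 (FDR 6.24e-08), or 13.6-fold. On TPM with 1 added, which compresses low genes, the day 7 log2 FC was 2.29.

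The day 7 hearts were nearly alike in Nox4, with a coefficient of variation of 6.67%, whereas Cybb varied by 31.5% over the same hearts. Summed CPM of 9 fibroblast markers was 1167 to 1418 in sham, 1805 to 2433 on day 1 and 8325 to 16571 on day 7. Of the 9, 4 (Col1a1, Col1a2, Col3a1 and Postn) were called higher on day 1 and 6 on day 7. Of all genes tested, 7.79% and 15.3% were called higher. On day 1 the log2 FC of the 9 ran from -0.72 for Dcn to 1.76 for Postn, with Dpt at -0.40 and Tcf21 at -0.02. On day 7 it ran from 0.36 for Dcn to 5.99 for Postn. Summed mural markers were 858 to 941 CPM in sham, 639 to 788 on day 1 and 1170 to 1749 on day 7, and those of endothelium 1014 to 1177, 831 to 886 and 1269 to 1422 CPM. The highest and lowest day 7 hearts in Nox4 differed by 1.13-fold. Over the same hearts the mean log2 CPM of the 9 fibroblast markers, in which each marker has equal weight, ran from 8.64 to 9.03. The part of these cell types in the rise of Nox4 was not tested. Within libraries, the log2 ratio of Nox4 to its partner Cyba rose by 2.95 from sham to day 7 and by 3.74 from day 1 (each adjusted p = 0.0429, exact permutation test), and from sham to day 1 the difference was -0.79 (exact permutation p = 0.0571).

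Duox1 was low throughout, lower on day 1 than in sham and higher again on day 7. Duox1 (ENSMUSG00000033268, chromosome 2, 122315672 to 122347972, plus strand) had 15, 20, 8 and 9 counts in sham, 3, 10, 5 and 7 on day 1, and 30, 20, 35 and 28 on day 7. Day 1 hearts, at 0.115 to 0.298 CPM, lay below the sham hearts at 0.388 to 0.821 CPM, with a log2 FC of -1.56 ± 0.38 (FDR 0.00523), and 1 of them was at the floor of 3 counts. Day 7 hearts, at 0.772 to 1.29 CPM, lay above every day 1 heart, with a log2 FC of 2.25 ± 0.36 (FDR 0.000191), and overlapped sham at 0.69 ± 0.33 (FDR 0.0834). Duox1 passed the filter on low counts through its day 7 hearts, the group where it was highest. With only sham and day 1 hearts it was not among the genes tested, and its calls carry that limit. The higher 2 sham counts were those of replicates 1 and 2. With sham replicates 3 and 4 alone the day 1 log2 FC was -0.99 (FDR 0.110), which ended the call, and the day 7 log2 FC was 1.26 (FDR 0.0232).

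Duox1 shares 4.51% of the 75-base stretches of its transcripts with its neighbour Duox2. This is a share of sequence and not of reads, and how many of its counts came from these stretches was not tested. Duox2 had 0.239 to 0.688 CPM on day 1, 0.332 to 0.656 CPM on day 7 and 0.669 to 0.886 CPM in sham, with no call in the 3 comparisons. On day 1 it was lower than in sham, as Duox1 was, at a log2 FC of -0.91 (FDR 0.0453), under 2-fold. Duoxa1, the maturation factor of Duox1, did not pass the filter, and its counts were 14, 12, 7 and 8 in sham, 4, 6, 5 and 1 on day 1, and 9, 0, 10 and 9 on day 7. Of 5 markers of airway and other epithelia, 2 were tested, and both were called higher on day 1, when Duox1 was lower, Cdh1 at a log2 FC of 5.62 and Krt19 at 1.36. Cdh1 was also called higher on day 7 than in sham and lower on day 7 than on day 1. The 5 markers summed to 0.388 to 2.79 CPM in sham, 2.80 to 7.76 CPM on day 1 and 1.94 to 6.67 CPM on day 7. Sftpc, the surfactant protein C of lung alveoli, had 34 counts in day 7 AMI replicate 1 and 132 in replicate 3, and 0 in the other 10 hearts, and Scgb1a1 was at 0 in all. Duox1 was at 0.924 and 1.29 CPM in those 2 hearts and at 0.772 and 0.952 CPM in the other day 7 hearts. With day 7 AMI replicates 2 and 4 alone, a setting added after seeing the data, the log2 FC of Duox1 from day 1 to day 7 was 2.06 (FDR 0.00385). The part of lung or other epithelial cells in the levels of Duox1 was not tested.

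Nox1 and Noxa1 were not measurable as groups at this depth. Nox1 (ENSMUSG00000031257, X, 134086421 to 134221956, minus strand) had 0, 1, 1 and 0 counts in sham, 2, 2, 0 and 1 on day 1, and 0, 9, 2 and 1 on day 7, so that 1 heart of 12 exceeded the floor of 3 counts. Cstf2 overlaps 12.1% of its exon bases on the opposite strand and was at 15.4 to 27.3 CPM. Noxa1 (ENSMUSG00000036805, chromosome 2, 25085667 to 25095149, minus strand) had 1 count in sham replicate 2, 1 in day 1 AMI replicate 1 and 0 in the other hearts. No FC is given for either gene.

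Of the 9 members, 7 were tested, and the counts below are of these 7. By the call rule, 3 were higher on day 1 than in sham (Ncf1, Ncf4 and Rac2) and 1 was lower (Duox1). Of the 15306 genes tested, 7.79% and 2.98% were called higher and lower. On day 7, 5 were higher than in sham (Cybb, Ncf1, Ncf4, Rac2 and Nox4), with a background of 15.3%, and 0 were lower, with a background of 5.88%. Between day 1 and day 7, 3 were higher (Cybb, Nox4 and Duox1) and 0 lower, against 8.55% and 2.69%. Both counts of 0 from edgeR were also 0 at an unadjusted p under 0.05 and 0 by DESeq2. The hearts of 5 members lay above sham without overlap on day 1 and those of 1 below, where 19.6% and 17.1% of genes did so. On day 7 the number above sham was 6 against 28.3% of genes, and 3 members lay above day 1, against 23.5%. The comparisons of day 1 and day 7 with sham share the sham hearts, and the third shares its hearts with both. Duox1 is counted here although it passed the filter through its day 7 hearts.

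Per unit of transcript length, Cyba was the most abundant member in each group, at 49.9 ± 9.12 TPM (SD, n = 4) in sham, 99.4 ± 11.7 on day 1 and 121 ± 28.2 on day 7, with no heart overlapping the next member. In sham, Rac2, Cybb, Ncf1 and Ncf4 followed with neighbouring ranges that overlapped, at means of 4.42, 2.87, 2.84 and 2.25 TPM, and Rac2 rested on 1 heart. On day 1, Cybb at 6.24 ± 1.02 TPM stood below the means of Rac2, Ncf1 and Ncf4 at 14.7, 12.7 and 10.4 TPM, although its range overlapped that of Rac2 and of Ncf4 and its highest heart, at 7.76 TPM, was just under the lowest of Ncf1, at 7.85 TPM. On day 7, Cybb at 17.6 ± 6.02 TPM was second in order, with a range that overlapped that of Ncf1 at 13.0 TPM, and Ncf4 and Rac2 followed at 11.7 and 9.92 TPM. Nox4 was at 0.275 TPM in sham, 0.373 on day 1 and 5.24 ± 0.21 on day 7, below each phagocyte member in each group. Duox1 was at most 0.40 TPM in any heart.

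Of 10 other partners of the oxidases, 7 were tested. On day 1, 1 was called higher (median log2 FC of the list 0.56), near the 7.79% of all genes, and on day 7, 4 were (median 1.10), beside 15.3% of all genes, with none lower. Nrros, a chaperone-like regulator that lowers gp91phox, was called at both times, at 1.24 and 1.29. Cybc1, a chaperone that the gp91phox and p22phox pair needs, was at 0.78 on day 1 and called at 1.10 on day 7. Hvcn1, the voltage-gated proton channel that balances the charge moved by the oxidase, was at 0.92 on day 1 and called on day 7 at 2.54 ± 0.17, and again between day 1 and day 7 at 1.61.

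Noxo1, the organizer of Nox1, was called on day 7 at a log2 FC of 2.03 ± 0.37 (FDR 0.00026), with 37, 45, 38 and 57 counts on day 7 against 5, 9, 5 and 13 in sham, although Nox1 itself remained near the floor. Rac1, the widely expressed Rac GTPase, differed by 0.17 on day 1 and 0.16 on day 7 and was not called. Poldip2, a partner of Nox4, was at -0.77 on day 7 (FDR 1.4e-06), under 2-fold and opposite in sign to Nox4. Nox3 was listed at 0 in all 12 hearts.

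Of 15 genes that switch the phagocyte oxidase on, 9 were called higher on day 1 (median log2 FC 1.14) and 11 on day 7 (median 1.46), beside the same 7.79% and 15.3% of all genes, and between the AMI groups 0 were higher and 1 lower. Vav1, an exchange factor for Rac, was at 2.13 ± 0.21 on day 1 and 2.00 ± 0.21 on day 7, and Fcgr1, the high-affinity IgG receptor, at 2.22 and 2.18. The exchange factor Prex1 was at 0.53 ± 0.14 on day 1 and called only on day 7, at 1.43 ± 0.14, and Plcg2, a phospholipase of receptor signaling, at 0.75 and 1.20. The formyl peptide receptor Fpr1 was called higher on day 1, at 1.88 ± 0.51, and lower on day 7 than on day 1, at -1.21 ± 0.46, on at most 36 counts per heart. For all 15, the summed level was 124 to 133 CPM in sham, 218 to 298 on day 1 and 239 to 327 on day 7.

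Among 10 enzymes that supply NADPH or handle reactive oxygen, 9 were tested. G6pdx, the first enzyme of the pentose phosphate pathway, was the 1 called higher on day 1, at 1.04 ± 0.18, and none was lower, where 7.79% of all genes tested were called higher. On day 7 none was called higher and 2 were called lower, where 5.88% of all genes were. These were the superoxide dismutases Sod1 at -1.09 ± 0.12 and Sod2 at -1.13 ± 0.08. Catalase (Cat) was at -0.99 ± 0.10, just under 2-fold, and Idh1 and Me1 were at -0.85 and -0.58. The others went the other way without a call. Sod3 was at 0.996 ± 0.104 (FDR 2.2e-06), also just under 2-fold, G6pdx at 0.85, Gpx1 at 0.78 and Pgd at 0.51. Over the same groups the summed level of 10 cardiomyocyte markers, such as Myh6 and Tnnt2, which matched the labelled tissue, fell from 95796 to 111681 CPM in sham to 57953 to 72094 on day 1 and 51420 to 59698 on day 7. Of these 10 markers, 6 were called lower on day 7, and their part in the values of the enzymes was not tested.

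The genes whose levels ran most like those of Cybb and Nox4 over the 12 libraries were taken by Pearson correlation of log2 CPM among 15299 genes. For Cybb they were Ly86 (r = 0.990), Cxcl16 (0.987), Prex1 (0.987), Csf1r (0.987) and Taok3 (0.982). Ly86 went from 3.27 CPM in sham to 6.81 on day 1 and 18.1 on day 7, the same order of groups as Cybb. For Nox4 they were Sfrp2 (0.987), Colec12 (0.986), C1qtnf3 (0.984), Naalad2 (0.984) and Smo (0.983), and Sfrp2 went from 4.04 CPM in sham and 4.63 on day 1 to 184 on day 7. By Spearman correlation 2 of the 5 genes for Cybb and 0 of the 5 for Nox4 remained among the first 5. The libraries share their group differences and scaling, so these values describe likeness only.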

How the data were processed

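The authors aligned paired reads with STAR 2.4.0j to the mouse genome (mm10, GRCm38) and quantified genes with RSEM, and CASAVA 1.8 is also named in the submitters' processing notes. The authors deposited raw counts per gene, whole numbers without normalization, and TPM from RSEM for the same genes. The counting tool and the strand are not given in the sources used here. Samples were grouped by their labels, and the study calls the libraries of a group biological replicates. No 2 libraries of a group agreed within sampling noise (chi-square per degree of freedom at least 8.84).

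Counts were fitted in edgeR 4.0.16 (R 4.3.3) with TMM normalization, filterByExpr for the 3 groups and a quasi-likelihood F test, all 12 libraries in 1 fit, with Benjamini-Hochberg FDR over 15306 genes. CPM are TMM-normalized. SEs are those implied by the F statistic, and log2 CPM used a prior count of 2. Ratios within libraries had 0.5 added to each count and were compared with exact two-sided permutation tests. DESeq2 1.42.0 and limma 3.58.1 on log2 TPM served as alternatives, and the code was tested on simulated data. Floors cover counting error only.

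The 9 members and the gene lists were chosen with earlier results of these data known. One listed gene is not reported here. Named genes are the members, listed genes, and the 5 genes most like Cybb and Nox4. Positions are from GENCODE M21, and promoter windows from RefSeq, which held 7 of the members and not Ncf4 or Rac2.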

Additional observations from a re-analysis of the deposited data

Results flagged for a closer look

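Of 75 checks for a heart that stands apart from the other 3 of its group, 8 passed Dixon's 95% limit, and chance flags about 1 in 20 groups. Sham replicate 1 stood apart in Cybb at 3.72 log2 CPM (others 3.51 to 3.54), in Cyba at 4.12 log2 CPM (others 4.50 to 4.53) and in the log2 ratio of Cyba to Cybb at 0.41 (others 0.99 to 1.00). Sham replicate 2 stood apart in Rac2 at 12.3 TPM (others 1.51 to 2.25), and its Rac2 count of 153 was the highest of the sham hearts but near the 120 of replicate 1. Day 1 AMI replicate 2 had 7.76 TPM of Cybb (others 5.65 to 5.85), and day 1 AMI replicate 1 had a log2 ratio of Nox4 to Cyba of -4.69 (others -5.67 to -5.56). Against the leukocyte markers, Cyba was at -0.20 in day 7 AMI replicate 4 (others 0.11 to 0.14) and Ncf4 at -2.45 in day 7 AMI replicate 3 (others -2.60 to -2.58).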

How the results depend on the processing

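The number of members called did not change when any 1 heart was left out, and no called member lost its call in those 8 fits per comparison. A replicate block left the members called at 3 higher and 1 lower on day 1, 5 and 0 on day 7, and 3 and 0 between the AMI groups. The labels' replicate numbers do not pair the samples (12 same-numbered pairs, r from -0.24 to 0.23, with 4 above 0.1, and 5 of 24 correlated best with their own number). On day 1 the members called higher were 5 with limma on log2(TPM + 0.1) and 5 without a FC minimum, where Cybb and Cyba joined. The members called lower on day 1 were 0 with limma on either pseudocount and 0 on only the groups compared, because Duox1 was not among the genes tested there, and 0 with sham replicates 3 and 4 only. The members called on day 7 with day 7 AMI replicates 2 and 4 only, added after seeing the data, were 5 above sham and 3 above day 1, as with all hearts. With sham replicates 3 and 4 only, Duox1 joined the day 7 calls, giving 6. Other members that passed only under an alternative were Cyba on day 7 (1.25 and 1.26 with limma) and Duox1 on day 7 (1.09 with library sizes alone). Library sizes alone changed the share of called genes that were higher from 72.3% to 89.0% on day 1 and from 72.3% to 91.9% on day 7. The genes called lower were then 217 in place of 456 on day 1 and 318 in place of 900 on day 7, and those higher on day 7 were 3630 in place of 2346. With limma the genes called lower were 64 and 122 on day 1, 113 and 179 on day 7, and 134 and 181 (main 411) between the AMI groups, with pseudocounts of 1 and 0.1, and those higher on day 7 with 0.1 were 3575. Depth limited Nox1 and Noxa1, which had at most 9 and 1 counts in a heart.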
